A study of Rattus norvegicus with 16 samples.

Results

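The first sampled time after a moderate fluid percussion injury, 3 h, was compared here with sham operation in the rat cortex, gene by gene. The comparison used 6 of the study's 16 arrays: 3 of injured cortex at 3 h and 3 of sham-operated cortex, 1 each at 3, 6 and 12 h after the operation. The arrays were chosen by their titles. The sham of 48 h was left out because the submitters' design keeps it apart from the other shams. Both groups were male Wistar rats aged 8 weeks. All of them, shams included, had been given a craniectomy, 4.8 mm wide and above the right parietal cortex, 48 h before a pressure pulse of 3.3 ± 0.3 atm was or was not delivered through the port. The rats were perfused with saline, the brain was cut into 2-mm slices, the cortex at the site of contusion (in shams, the matching cortex) was taken, and 0.4 ug of polyadenylated RNA was labelled for Affymetrix arrays. The labels do not say whether the arrays of a group came from separate rats or processing days, so p-values measure the spread between arrays only.

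In injured brain, damaged cells, blood and plasma proteins reach the innate immune receptors of microglia, endothelium and perivascular cells. Signalling through NF-kB and the MAP kinases then switches on genes whose promoters are already open, among them those for cytokines, immediate early transcription factors and the proteins that later shut the response down. Cytokines, immediate early genes and NF-kB targets are the usual description of this first wave. The account here is of the genes around them: receptors, transcription factors, RNA-decay proteins, proteases, vascular and metabolic genes, and the genes that were lower.

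Of 14217 genes, 83 passed an adjusted p of 0.05 in limma (0.584%), 69 higher (0.485%) and 14 lower (0.0985%) at 3 h than in the shams. 23 of the 83 belonged to the lists of cytokines and chemokines, immediate early genes and NF-kB targets, and all of those were higher. The other 60 comprised 46 higher and 14 lower genes, and 39 of the 83 genes were in none of the 42 lists. The 3 lists are short, so a gene outside them can still be a chemokine or an NF-kB target. Among the 46 the log2 difference ran from 0.34 to 3.40 with a median of 0.95, and among the 14 the size ran from 0.38 to 2.00. In every one of the 83 the 3 injured arrays lay on one side of all 3 shams, a separation that 2529 of all genes showed (17.8%). The calls were made on these same arrays, so the separation adds no support to them. The median difference over all genes was -0.01 and 45.81% of genes lay above 0. An unadjusted p under 0.05 was reached by 9.55% of all genes, 4.35% higher and 5.2% lower. The number of calls rested on single arrays: omitting injured array 2 or 3 (arrays carry their replicate numbers) left 33 or 39, and omitting the sham of 6 h or of 12 h left 38 or 33. Lower calls alone numbered 5 when injured array 1 was omitted and 51 when the 3 h sham was. With quantile-normalized arrays it was 198, of which 134 higher and 64 lower, and with the 3 h sham as the only control it was 13.

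**Figure D1:**
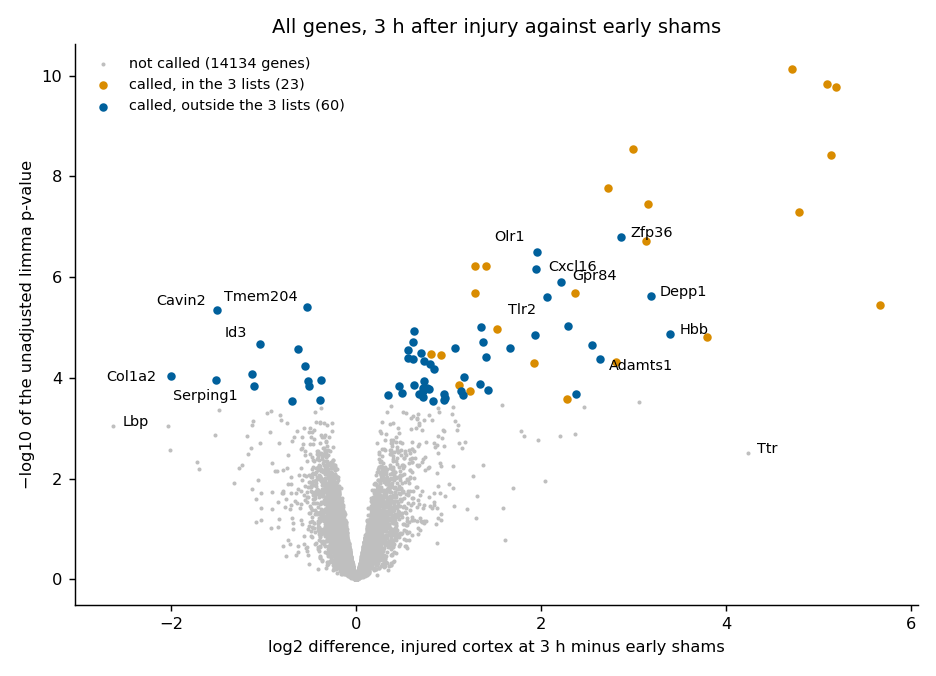
Log2 difference of each gene (x axis, injured cortex at 3 h minus early shams) against minus log10 of its unadjusted limma p-value (y axis), with genes in grey that were not called, in orange the 23 called genes of the cytokine, immediate early and NF-kB lists and in blue the 60 other called genes. The blue points reach 3.40 for Hbb on the right, Col1a2, which fell by 2.00, is the leftmost of them, and Ttr at 4.24 stays among the uncalled genes.

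The promoters of called higher genes outside the 3 lists that hold the NF-kB consensus or the cAMP response element (CRE) are shown first, because the members of this wave are usually described through these sites. The letters come from RefSeq promoters (GRCr8), the 250 bases before the gene's start on the gene's strand, and capitals mark the match. Ccl9 is at chr10:68868878-68869127 (minus strand), Tfpi2 at chr4:32941277-32941526 (minus), Irf1 at chr10:38417685-38417934 (plus), Tlr2 at chr2:171504558-171504807 (minus), Ccnl1 at chr2:152507469-152507718 (minus) and Uaca at chr8:70154864-70155113 (plus). The match is to the NF-kB consensus in all but Ccnl1, where it is to the CRE.
Ccl9: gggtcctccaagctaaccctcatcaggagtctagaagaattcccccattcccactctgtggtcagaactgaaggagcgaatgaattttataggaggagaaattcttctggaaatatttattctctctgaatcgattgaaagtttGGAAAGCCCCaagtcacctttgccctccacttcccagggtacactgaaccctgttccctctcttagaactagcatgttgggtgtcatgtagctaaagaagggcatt
Tfpi2: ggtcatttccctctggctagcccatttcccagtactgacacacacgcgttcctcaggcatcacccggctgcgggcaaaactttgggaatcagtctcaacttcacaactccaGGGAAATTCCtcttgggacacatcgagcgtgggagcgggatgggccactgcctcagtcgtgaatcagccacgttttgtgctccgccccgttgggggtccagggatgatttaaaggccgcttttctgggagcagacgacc
Irf1: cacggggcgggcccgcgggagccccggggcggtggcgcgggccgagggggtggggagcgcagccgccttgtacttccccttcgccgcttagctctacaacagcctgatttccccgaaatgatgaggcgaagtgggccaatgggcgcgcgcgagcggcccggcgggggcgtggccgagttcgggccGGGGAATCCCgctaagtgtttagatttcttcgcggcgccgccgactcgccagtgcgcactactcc
Tlr2: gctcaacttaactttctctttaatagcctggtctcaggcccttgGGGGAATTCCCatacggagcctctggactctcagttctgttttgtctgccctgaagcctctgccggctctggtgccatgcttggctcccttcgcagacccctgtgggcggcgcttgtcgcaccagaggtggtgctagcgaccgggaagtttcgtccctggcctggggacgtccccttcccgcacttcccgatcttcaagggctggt
Ccnl1: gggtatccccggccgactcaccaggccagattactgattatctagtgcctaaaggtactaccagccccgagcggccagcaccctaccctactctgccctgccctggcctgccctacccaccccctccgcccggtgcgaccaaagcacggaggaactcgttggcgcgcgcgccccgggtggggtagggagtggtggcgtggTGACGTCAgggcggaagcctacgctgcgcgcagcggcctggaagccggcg
Uaca: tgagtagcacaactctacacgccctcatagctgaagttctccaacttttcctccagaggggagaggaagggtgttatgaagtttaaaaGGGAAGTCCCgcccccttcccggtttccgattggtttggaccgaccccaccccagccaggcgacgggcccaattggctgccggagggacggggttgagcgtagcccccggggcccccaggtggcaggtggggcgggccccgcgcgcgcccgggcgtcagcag
The match began 106 bases before the start in Ccl9, 139 in Tfpi2, 65 in Irf1 and 162 in Uaca, while Tlr2 held 2 overlapping matches that began 206 and 205 bases before it and the CRE of Ccnl1 began 50 bases before it. A promoter was found for 54 of the 69 higher genes and for 11733 of all genes measured. The NF-kB consensus, searched on both strands, was in 13 of the 54 (24.1%) and in 502 of the 11733 (4.28%). It was in 8 of 16 higher genes of the 3 lists (50%), in 5 of 38 outside them (13.2%), which are the 5 printed, and in 1 of 10 lower genes (Ocln). The AP-1 site TGANTCA was in 11 of 54 (20.4%), 6 of them among the 38 outside the lists (15.8%), against 4.84% of all. The CRE TGACGTCA was in 3 of 54 (5.56%), and among the 38 its 1 match, Ccnl1, made 2.63%, near the 2.64% of all. The C/EBP site TTGCNNAA was in 6 of 54 (11.1%) against 8.18%. These shares describe letters in a window and show no binding.

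Values below are log2 values relative to the mean of the 3 shams, given for injured replicates 1, 2 and 3 and then for the 3, 6 and 12 h shams. Differences are log2 of 3 arrays against 3, ± limma's SE, whose spread is estimated from all 16 arrays in 6 groups. The SE is therefore not the spread of these 6 arrays alone. The p-values are limma's, adjusted by Benjamini-Hochberg over all genes.

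Cell-surface receptors of innate immune cells were among the most separated genes. Tlr2, the receptor for bacterial lipoproteins that also responds to products of damaged tissue, read 2.22, 2.01 and 1.97 in injured replicates 1, 2 and 3 and 0.24, -0.08 and -0.17 in the 3, 6 and 12 h shams. It was higher by 2.07 ± 0.27 (adjusted p = 0.0019), a 4.2-fold change. Gpr84, a receptor for medium-chain fatty acids on myeloid cells, read 2.14, 2.19 and 2.33 against 0.56, -0.34 and -0.21, with the 3 h sham the highest of the shams, and rose by 2.22 ± 0.27 (adjusted p = 0.00117). Olr1, the scavenger receptor for oxidised LDL, read 2.41, 1.97 and 1.49 against 0.06, 0.05 and -0.12 and rose by 1.96 ± 0.21 (adjusted p = 0.00041). All of these injured arrays stood more than 1 log2 unit above the mean of the shams, and the 3 calls held whichever array was left out.

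Weaker receptor genes followed. Cd83, a surface protein of activated antigen-presenting cells, read 1.90, 0.92 and 0.64 against -0.06, -0.03 and 0.09 and was higher by 1.15 ± 0.23 (adjusted p = 0.042), with injured replicate 1 far above replicates 2 and 3. Pvr, an adhesion receptor of the nectin family, read 0.77, 1.16 and 1.45 against -0.06, 0.02 and 0.03 and was higher by 1.13 ± 0.22 (adjusted p = 0.0379). Cd40, the co-stimulatory receptor of antigen-presenting cells, rose by 0.79 ± 0.15 (adjusted p = 0.0365). Cd93, a C-type lectin of endothelial and myeloid cells, rose by 0.77 ± 0.15 (adjusted p = 0.0351), but 1 of its 2 probe sets gave 1.40 and the other 0.14. Gpr4, a proton-sensing receptor of endothelium, was higher by 0.70 ± 0.12 (adjusted p = 0.0118). None of these 5 calls held in every leave-one-out fit: that of Cd83 was lost without injured array 2 or the 3, 6 or 12 h sham, those of Pvr and Cd40 without injured array 2 or 3 or the 3, 6 or 12 h sham, that of Cd93 without injured array 1, 2 or 3 or the 6 or 12 h sham, and that of Gpr4 without injured array 2 or 3 or the 6 or 12 h sham.

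No other pattern-recognition gene passed. Of 16 measured members, 2 were called higher (Tlr2 and Olr1) and none lower, with a list median of 0.11. An unadjusted p under 0.05 was found in 4, against 9.55% of all genes. Cd14, the co-receptor for lipopolysaccharide, read 0.86, 1.77 and 2.45 against -0.06, -0.04 and 0.10, a difference of 1.69 ± 0.61 (adjusted p = 0.371) that did not pass. Lbp, the lipopolysaccharide-binding protein, had the largest lower value of any uncalled gene, -2.62 ± 0.62 (adjusted p = 0.103). Its arrays read -2.69, -2.76 and -2.43 against -1.45, 0.78 and 0.66, so the 3 h sham lay between the injured arrays and the other shams.

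Ligands outside the list of 25 cytokines and chemokines, which does not hold every chemokine, were also higher. Ccl9, a chemokine for myeloid cells whose promoter is printed above, read 1.59, 3.10 and 2.94 in injured replicates 1, 2 and 3 and -0.01, 0.12 and -0.12 in the 3, 6 and 12 h shams. Its injured replicate 1 was lower than the other injured arrays, and it rose by 2.55 ± 0.41 (adjusted p = 0.00969), a call that was lost without injured array 2 or 3 or the 12 h sham. Cxcl16, a membrane-bound chemokine that also serves as a scavenger receptor, read 1.73, 1.83 and 2.28 against -0.24, 0.05 and 0.20 and rose by 1.94 ± 0.23 (adjusted p = 0.000702). Tnfsf9, the ligand of the co-stimulatory receptor 4-1BB, read 0.61, 0.58 and 0.69 against -0.10, 0.03 and 0.06 and rose by only 0.63 ± 0.09 (adjusted p = 0.00658), but with a spread small enough that its call held in all 6 leave-one-out fits, as did that of Cxcl16.

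Several transcription and chromatin regulators rose. Irf1, an activator of interferon-responsive genes, was near the sham mean in every sham (1.68, 2.33 and 2.86 against -0.02, 0.02 and 0.00) and rose by 2.29 ± 0.34 (adjusted p = 0.00577). Irf8, a transcription factor of microglia and other myeloid cells, read 1.60, 1.74 and 1.66 against 0.16, -0.01 and -0.14 and was higher by 1.66 ± 0.27 (adjusted p = 0.0105). Cebpd, an acute-phase transcription factor, read 1.08, 1.51 and 1.63 against 0.29, -0.07 and -0.22 and was higher by 1.41 ± 0.24 (adjusted p = 0.0134). Of its 3 probe sets, 2 gave 2.15 and 2.06 and the third 0.02, so the gene average is smaller than what those 2 probe sets read. Kdm6b, the demethylase that removes the repressive mark of histone H3 lysine 27, was higher by 1.42 ± 0.28 (adjusted p = 0.0366), with readings of 1.34, 1.73 and 1.21 against 0.24, -0.14 and -0.09. The call of Irf1 held in every leave-one-out fit. Those of Irf8 and Cebpd were lost without injured array 2 or 3 or the 6 or 12 h sham, and that of Kdm6b without injured array 1, 2 or 3 or the 6 or 12 h sham.

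Around these, the list of other early transcription factors held few calls. Of 26 measured members, 1 (Cebpd) was called, 21 lay above 0, and in 15 the injured arrays were all above the shams, with a list median of 0.45 against -0.01 over all genes. 13 members had an unadjusted p under 0.05 in the higher direction, which 4.35% of all genes had. Csrnp1, a nuclear protein of the immediate response, read 1.89, 1.68 and 1.17 against 0.32, 0.12 and -0.45 and differed by 1.58 ± 0.33 (adjusted p = 0.0571). Maff, a small Maf factor, differed by 1.07 ± 0.25 (adjusted p = 0.0911), and Nfil3, a bZIP repressor, by 1.04 ± 0.23 (adjusted p = 0.075). Cebpb differed by 0.95 ± 0.25 (adjusted p = 0.168) and Myc by 0.88 ± 0.28 (adjusted p = 0.276). None of these 5 passed the adjusted threshold. The interferon-response list held 2 called genes of 22, Irf1 and Irf8, where 0.485% of all genes were called higher. Its median was 0.16, and 4 members had an unadjusted p under 0.05 in the higher direction, against 4.35% of all genes. Gbp2, a guanylate-binding protein, read 1.19, 2.33 and 3.89 against 0.08, 0.16 and -0.24, a difference of 2.47 ± 0.53 (adjusted p = 0.0619).

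Of 10 measured regulators of mRNA decay, 2 rose. Zfp36 (tristetraprolin), which binds AU-rich elements and hastens the decay of cytokine mRNAs, read 3.09, 2.79 and 2.72 in injured replicates 1, 2 and 3 and 0.16, -0.16 and 0.01 in the 3, 6 and 12 h shams. It was 7.28-fold higher, 2.86 ± 0.29 (adjusted p = 0.000252), and its call held in all 6 leave-one-out fits and with the 3 h sham as the only control. Zfp36l1, its paralog, read 0.98, 0.99 and 0.88 against -0.19, -0.16 and 0.35 and was higher by 0.95 ± 0.19 (adjusted p = 0.041), a call lost without injured array 1, 2 or 3 or the 3 or 6 h sham. The other 8 were not called. Over all genes 0.485% were called higher. Of the 10, 3 had an unadjusted p under 0.05 in the higher direction, against 4.35% of all genes. Zc3h12a, the endonuclease that degrades inflammatory transcripts, differed by 0.67 ± 0.15 (adjusted p = 0.075).

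MAP kinase feedback genes, the dual-specificity phosphatases, sprouty proteins and Gadd45 family, had 0 of 15 members called by limma. All 15 lay above 0, as 45.81% of all genes did. An unadjusted p under 0.05 in the higher direction was found in 7, against 4.35% of all genes. The list median was 0.38, between 0.37 and 0.53 under the other scalings, probe set rule and leave-one-out fits, and 0.48 against the 3 h sham alone. Gadd45b, a stress-response protein upstream of p38, read 1.54, 2.07 and 1.85 against 0.19, -0.05 and -0.13 and differed by 1.82 ± 0.46 (adjusted p = 0.132). Gadd45g differed by 1.79 ± 0.44 (adjusted p = 0.116), with the 3 h sham at 0.94 and the shams spread over more than 1 log2 unit. Dusp1, a phosphatase of the MAP kinases, read 1.72, 0.91 and 0.80 against 0.69, -0.10 and -0.59 and differed by 1.14 ± 0.31 (adjusted p = 0.176). Its 3 h sham, at 0.69, was close to injured replicates 2 and 3.

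Signalling and cytoskeletal genes without a list made up much of the rest. Depp1, a gene induced by FOXO factors, had the largest called change outside the 3 lists and the globins, 3.19 ± 0.41 (adjusted p = 0.00187), or 9.11-fold. Its arrays read 2.86, 3.05 and 3.65 in injured replicates 1, 2 and 3 and 0.75, -0.34 and -0.41 in the 3, 6 and 12 h shams, with all injured arrays above 2.8. Plek (pleckstrin), a protein kinase C substrate of platelets and leukocytes, read 1.61, 1.87 and 2.31 against 0.23, -0.03 and -0.20 and rose by 1.93 ± 0.29 (adjusted p = 0.00734), a call lost without the 12 h sham. Slfn2, a schlafen protein of immune cells, rose by 1.38 ± 0.22 (adjusted p = 0.00912) with readings of 1.04, 1.56 and 1.52 against -0.03, 0.11 and -0.09. Rgs16, which shortens G-protein signalling, read 0.89, 1.44 and 1.70 against 0.05, -0.24 and 0.19 and was higher by 1.34 ± 0.26 (adjusted p = 0.033). Vasp, which promotes actin filament growth, read 1.09, 1.16 and 1.26 against 0.24, -0.17 and -0.07 and was higher by 1.17 ± 0.22 (adjusted p = 0.0259). The call of Depp1 held in every leave-one-out fit. That of Slfn2 was lost without injured array 2 or 3 or the 12 h sham, that of Rgs16 without injured array 2 or 3 or the 3, 6 or 12 h sham, and that of Vasp without injured array 1, 2 or 3 or the 6 or 12 h sham.

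Smaller changes, all under 1.1 log2 units, touched splicing, kinases and other functions. Ccnl1 (cyclin L1, a splicing-associated cyclin), whose promoter holds the CRE printed above, read 1.35, 0.88 and 0.97 against 0.06, 0.13 and -0.20 and was higher by 1.07 ± 0.17 (adjusted p = 0.0105). The kinases Nuak2 and Pim3 were higher by 0.84 ± 0.15 and 0.57 ± 0.09, and the onconeural antigen gene Cdr2 by 0.57 ± 0.10. Uaca, a coiled-coil protein with ankyrin repeats, read 0.98, 0.60 and 0.80 against 0.08, -0.07 and -0.02 and was higher by 0.80 ± 0.14 (adjusted p = 0.0154). Phlda2, Sowahc and Tatdn3 were higher by 0.83 ± 0.17, 0.73 ± 0.15 and 0.50 ± 0.10, and these 3 calls were lost whichever array was left out. Plet1 averaged 0.46 ± 0.09 over 3 probe sets that gave 0.94, 0.12 and 0.32. The call of Ccnl1 was lost without the 12 h sham, that of Nuak2 without injured array 2 or 3 or the 6 h sham, that of Pim3 without injured array 2 or the 12 h sham, that of Cdr2 without injured array 2 or 3 or the 12 h sham, that of Uaca without injured array 1 or 3 or the 6 or 12 h sham, and that of Plet1 without injured array 2 or 3 or the 3, 6 or 12 h sham.

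Secreted proteases and a protease inhibitor were called as well. Adamts1, a secreted metalloproteinase that cleaves proteoglycans, read 2.05, 2.77 and 3.09 in injured replicates 1, 2 and 3 and 0.56, -0.17 and -0.38 in the 3, 6 and 12 h shams and was 6.2-fold higher, 2.63 ± 0.45 (adjusted p = 0.0138). Tfpi2, a Kunitz inhibitor of plasmin and other serine proteases, read 1.75, 2.41 and 2.97 against -0.21, 0.00 and 0.21 and was higher by 2.38 ± 0.48 (adjusted p = 0.041). Plat, tissue plasminogen activator, which converts plasminogen to plasmin, read 1.54, 1.21 and 1.29 against -0.01, -0.07 and 0.08 and rose by 1.35 ± 0.20 (adjusted p = 0.00582). Adamts9, a relative of Adamts1, was higher by 0.74 ± 0.14 (adjusted p = 0.0295), but its probe sets gave 1.36 and 0.12. The call of Plat held in every leave-one-out fit, whereas that of Adamts1 was lost without injured array 2 or 3 or the 6 or 12 h sham, that of Tfpi2 without injured array 2 or 3 or the 3, 6 or 12 h sham, and that of Adamts9 without injured array 1, 2 or 3 or the 6 or 12 h sham. Of the 25 measured genes of the matrix protease and plasminogen list, 3 were called higher, where 0.485% of all genes were, and none lower, with a median of 0.03. In this list 5 had an unadjusted p under 0.05 (4 higher and 1 lower), against 9.55% of all genes. Ccn2, the connective tissue growth factor, differed by -1.03 ± 0.27 (adjusted p = 0.152) and did not pass.

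**Figure D2:**
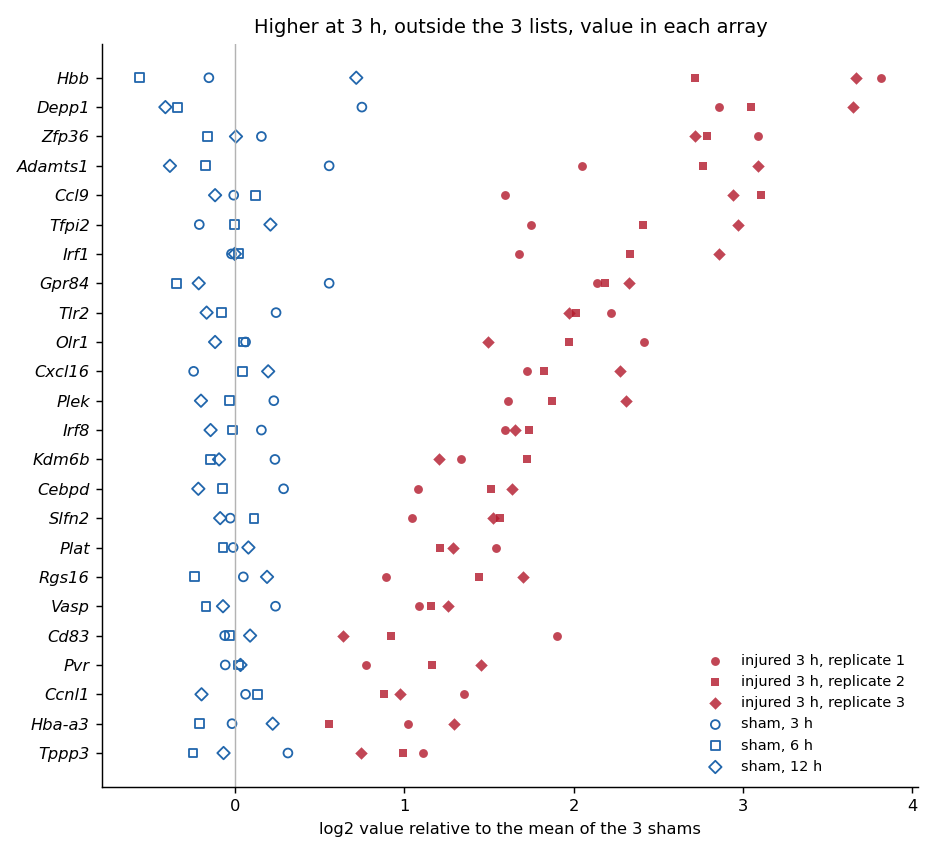
Log2 value of each array relative to the mean of the 3 shams (x axis) for the 24 called genes with the largest increase outside the 3 lists (y axis), with injured arrays as filled red symbols and shams as open blue ones. The filled symbols lie to the right of every open symbol in all 24 genes, from 2.72 to 3.82 for Hbb down to 0.74 to 1.11 for Tppp3.

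Haemoglobin transcripts were higher in all 3 injured arrays although the rats had been perfused. Hbb, a beta-globin, read 3.82, 2.72 and 3.67 in injured replicates 1, 2 and 3 and -0.15, -0.56 and 0.72 in the 3, 6 and 12 h shams, 10.6-fold higher at 3.40 ± 0.52 (adjusted p = 0.0071). Hba-a3, an alpha-globin, read 1.02, 0.55 and 1.29 against -0.02, -0.21 and 0.22 and was higher by 0.96 ± 0.19 (adjusted p = 0.0449), a call lost without injured array 1 or 3 or the 3, 6 or 12 h sham. Globin genes are near-identical copies, so the probe sets may read several of them together. The other 7 of the 9 measured erythrocyte markers were not called, the list median was 0.02, and Alas2, which begins haem synthesis in red cell precursors, read 0.52, 0.08 and 0.48 against 0.24, -0.26 and 0.02.

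No neutrophil marker passed beside the globins. By limma 0 of 10 were called, where 0.584% of all genes were. An unadjusted p under 0.05 was found in 1 (Lcn2, which reactive astrocytes also express), against 9.55% of all genes. Lcn2 differed by 1.06 ± 0.45 (adjusted p = 0.472), and the calprotectin genes S100a8 and S100a9 differed by 0.02 ± 0.53 and 0.35 ± 0.73. Of 18 monocyte and macrophage markers none was called either, 2 had an unadjusted p under 0.05, and the list median was 0.00 and took either sign under other settings. Microglial markers had 0 of 13 called, 2 of them under an unadjusted p of 0.05, and a median of -0.10. P2ry12, the purinergic receptor of homeostatic microglia, read 0.00, -0.53 and -1.24 against 0.27, -0.09 and -0.18. In bulk tissue fewer cells of a type and less RNA per cell cannot be told apart.

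Choroid plexus transcripts stood out in part of the injured arrays. Ttr, the thyroxine carrier made by the choroid plexus, had the largest difference of any uncalled gene, 4.24 ± 1.19 (adjusted p = 0.189), with readings of 1.43, 5.24 and 6.06 against -0.19, 0.23 and -0.03. The median of the 20 measured choroid plexus markers was -0.04 in injured replicate 1, 0.18 in replicate 2 and 0.45 in replicate 3, against -0.01 to 0.03 in the shams. By limma none was called. An unadjusted p under 0.05 in the higher direction was found in 4, against 4.35% of all genes, and 18 lay above 0, against 45.81% of all genes. Sostdc1, F5 and Cldn2, further markers of the plexus, read -0.39, 1.90 and 2.37 against 0.04, -0.08 and 0.04, -0.01, 0.69 and 2.08 against 0.12, -0.21 and 0.08 and -0.06, 0.61 and 1.53 against -0.23, 0.10 and 0.14 respectively, at sham values or below in injured replicate 1. Others were nearer 0, with Folr1 at 0.11 ± 0.08 and Kl at 0.17 ± 0.10. Car2, carbonic anhydrase 2, which the choroid plexus and oligodendrocytes express, was called at 0.73 ± 0.14 (adjusted p = 0.0376) with readings of 0.79, 0.70 and 0.69 against 0.28, 0.08 and -0.36, so it did not follow the order of the choroid plexus medians. Its call was lost without injured array 1, 2 or 3 or the 6 or 12 h sham, and the part of plexus tissue in it was not tested.

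Several called genes with small increases lie outside immune functions. Enpp6, a choline phosphodiesterase of newly forming oligodendrocytes, read 0.73, 0.66 and 0.63 against 0.16, -0.28 and 0.11 and was higher by 0.68 ± 0.14 (adjusted p = 0.0408). Tppp3, a tubulin-binding protein, was higher by 0.95 ± 0.20 (adjusted p = 0.0487), with readings of 1.11, 0.99 and 0.74 against 0.31, -0.25 and -0.07. Of 17 oligodendrocyte markers, 0 were called by limma, and the median was 0.26. An unadjusted p under 0.05 in the higher direction was found in 7, against 4.35% of all genes, and 16 lay above 0, against 45.81% of all genes. The per-array medians of this list were 0.39, 0.34 and 0.10 in the injured arrays and 0.12, -0.21 and 0.09 in the shams, so injured replicate 3 lay within the shams. Whether more white matter in some samples takes part was not tested. Mid1ip1, a regulator of fatty acid synthesis, was higher by 0.61 ± 0.10, and Serinc5, a protein of membrane lipids, by 0.72 ± 0.14. In the cholesterol synthesis list, 1 of 15 was called, where 0.485% of all genes were called higher. It was Idi1, isopentenyl-diphosphate isomerase, at 0.63 ± 0.12 (adjusted p = 0.033). Of the 15, 7 had an unadjusted p under 0.05 in the higher direction, against 4.35% of all genes. In that list 14 lay above 0, against 45.81% of all genes, and the median was 0.21, or 0.04 against the 3 h sham alone. The call of Mid1ip1 was lost without injured array 2 or 3 or the 6 or 12 h sham, that of Serinc5 without injured array 1 or 2 or the 6 or 12 h sham, that of Idi1 without injured array 2 or 3 or the 3, 6 or 12 h sham, and those of Enpp6 and Tppp3 without injured array 1, 2 or 3 or the 6 or 12 h sham.

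A pair of enzymes of small-molecule metabolism completed the higher genes. Dio2, the deiodinase that forms active thyroid hormone in brain, read 0.68, 0.89 and 0.65 against -0.02, 0.01 and 0.02 and was higher by 0.74 ± 0.13 (adjusted p = 0.0143). Dpyd, which degrades pyrimidines, read 0.66, 0.40 and 0.79 against 0.12, 0.00 and -0.11 and was higher by 0.61 ± 0.10 (adjusted p = 0.00912). Their calls were lost without injured array 2 or the 6 or 12 h sham for Dio2 and without injured array 3 or the 12 h sham for Dpyd.

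The 14 lower genes included several of vessels, connective tissue and growth-factor signalling. Cavin2, which shapes caveolae in endothelium, read -1.37, -1.53 and -1.61 in injured replicates 1, 2 and 3 and -0.18, 0.20 and -0.03 in the 3, 6 and 12 h shams, 2.83-fold lower at -1.50 ± 0.21 (adjusted p = 0.00297). Ocln (occludin), a tight-junction protein of the blood-brain barrier, read -0.61, -0.73 and -0.55 against 0.02, 0.17 and -0.19 and fell, with a difference of -0.63 ± 0.10 (adjusted p = 0.0106). Tmem204, a membrane protein of endothelium, read -0.54, -0.63 and -0.42 against 0.00, 0.06 and -0.05 and had a difference of -0.53 ± 0.07 (adjusted p = 0.00262). The calls of Cavin2 and Tmem204 held in every leave-one-out fit, and that of Ocln was lost without injured array 2 or the 6 h sham. Against the 3 h sham alone, Cavin2, Tmem204 and Ocln differed by -1.32, -0.53 and -0.65. With 1 sham array that control cannot decide whether the calls hold. Beyond Ocln and Cavin2, no gene of the endothelial and mural lists was called. Of 16 endothelial markers 1 was called lower and 8 lay above 0, with Flt1, a VEGF receptor, at 0.53 ± 0.15 (adjusted p = 0.189) and Cldn5, the main claudin of brain endothelium, at -0.45 ± 0.17 (adjusted p = 0.381). Of 18 mural and caveolar genes 1 was called lower and 13 were not above 0. Of 12 endothelial adhesion genes 1 was called higher, where 0.485% of all genes were. It was Icam1, also in the NF-kB list, at 3.00 ± 0.22 (adjusted p = 1.02e-05), and its call held in all 6 leave-one-out fits. In this list 6 had an unadjusted p under 0.05 (5 higher and 1 lower), against 9.55% of all genes. Vcam1 differed by 0.95 ± 0.23 (adjusted p = 0.116). Sele (E-selectin) read -0.21, 2.42 and 3.92 against -0.16, 0.16 and -0.01, at sham values in injured replicate 1 and highest in replicate 3.

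A collagen and a complement inhibitor of connective tissue fell, and 19 of the 24 genes of their list lay at or below 0. Col1a2, a chain of type I collagen, read -1.75, -2.27 and -1.96 in injured replicates 1, 2 and 3 and -0.60, -0.04 and 0.64 in the 3, 6 and 12 h shams and fell by 2.00 ± 0.37 (adjusted p = 0.0249). Serping1, the C1 inhibitor of the complement and contact systems, read -1.44, -1.82 and -1.27 against -0.40, -0.04 and 0.45 and fell, with a difference of -1.51 ± 0.28 (adjusted p = 0.0287). Smoc2, a matricellular protein, read -0.41, -0.31 and -0.42 against 0.02, -0.03 and 0.01 and averaged -0.38 ± 0.07 (adjusted p = 0.0287), but its probe sets gave -1.22, -0.07 and 0.15. Of 24 meningeal and fibroblast markers, 2 were called lower, 11 had an unadjusted p under 0.05 in the lower direction, which 5.2% of all genes had, and in 13 the injured arrays were all below the shams. The list median was -0.30, between -0.44 and -0.26 under the other scalings, probe set rule and leave-one-out fits, and -0.31 against the 3 h sham alone. Col3a1 and Lox, which encode a collagen and a collagen cross-linking enzyme, were not called at -2.04 ± 0.48 (adjusted p = 0.104) and -2.01 ± 0.55 (adjusted p = 0.18).

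The 3 h sham was the nearest of the shams to the injured arrays in the medians of this list. Per-array medians of the meningeal list were -0.50, -0.37 and -0.36 in the injured arrays and -0.24, 0.01 and 0.17 in the 3, 6 and 12 h shams. Lox read -2.10, -2.08 and -1.85 against -1.64, 0.72 and 0.92, with the 3 h sham beside the injured arrays. In 10 of the 14 lower genes (71.4%) the 3 h sham was the lowest sham, as it was in 33.4% of all genes. In 33 of the 69 higher genes (47.8%) it was the highest sham, as in 39.7% of all genes. With the 3 h sham as the only control, 1 array whose spread is taken from the other groups, Col1a2 differed by -1.40 (adjusted p = 0.967) and Serping1 by -1.11 (adjusted p = 0.967). Each sham time is 1 array, so time after the sham operation and array cannot be told apart. With all 3 shams, the call of Col1a2 was lost without injured array 2 or 3 or the 6 or 12 h sham, that of Serping1 without injured array 1, 2 or 3 or the 6 or 12 h sham, and that of Smoc2 whichever array was left out. How much meningeal tissue was dissected was not tested.

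Regulators of growth-factor signalling were among the lower genes. Id3, a target of BMP signalling that blocks basic helix-loop-helix factors, read -1.09, -1.07 and -0.93 against -0.10, -0.03 and 0.14 and fell, with a difference of -1.03 ± 0.16 (adjusted p = 0.00956). Its relatives did not pass: Id1 differed by -0.56 ± 0.22 (adjusted p = 0.398) and Id2 by 0.15 ± 0.18 (adjusted p = 0.879). Of 26 genes of the BMP, TGF-beta and Id list, Id3 was the 1 called, and the median was -0.04 but took either sign under other settings. Shisa3, which retains Wnt and FGF receptors in the endoplasmic reticulum, read -1.30, -1.14 and -0.96 against -0.40, -0.21 and 0.60 and fell, with a difference of -1.13 ± 0.21 (adjusted p = 0.0234). Nkd1, an inhibitor of Wnt signalling, was the 1 called higher gene among 27 of Wnt and Notch, at 0.34 ± 0.07 (adjusted p = 0.042). Apcdd1, a Wnt inhibitor of brain endothelium, differed by 1.17 ± 0.31 (adjusted p = 0.152). Id3 was not called without injured array 2 or the 12 h sham. Shisa3 lost its call without injured array 1, 2 or 3 or the 6 h sham, and Nkd1 without injured array 1, 2 or 3 or the 6 or 12 h sham.

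Enzymes and nuclear proteins made up the other lower genes. Ada, adenosine deaminase, which removes extracellular and cellular adenosine, read -1.04, -1.17 and -1.09 against -0.46, -0.04 and 0.50 and fell, with a difference of -1.10 ± 0.21 (adjusted p = 0.033). It was the 1 called gene of 20 in the purine and adenosine list. Fmo1, a flavin monooxygenase, read -0.61, -0.51 and -0.51 against 0.01, -0.08 and 0.08, a difference of -0.55 ± 0.10 (adjusted p = 0.0167). Gpcpd1, a glycerophosphocholine phosphodiesterase, read -0.57, -0.55 and -0.41 against -0.14, 0.13 and 0.01, a difference of -0.51 ± 0.10 (adjusted p = 0.033). In both, the injured arrays lay close together. Zfp105, a zinc finger protein, read -0.94, -0.68 and -0.46 against -0.19, 0.17 and 0.03 and fell, with a difference of -0.70 ± 0.14 (adjusted p = 0.0491). Urb1, a protein of ribosome assembly, read -0.60, -0.47 and -0.48 against -0.19, 0.12 and 0.07 and differed by -0.52 ± 0.10 (adjusted p = 0.0294). Dcaf4, a substrate receptor of a ubiquitin ligase, read -0.31, -0.46 and -0.39 against -0.05, 0.00 and 0.06 and differed by -0.39 ± 0.08 (adjusted p = 0.0491). The calls of Ada, Gpcpd1 and Urb1 were lost without injured array 1, 2 or 3 or the 6 or 12 h sham, that of Fmo1 without injured array 1, 2 or 3 or the 12 h sham, that of Zfp105 without injured array 1 or 2 or the 6 or 12 h sham, and that of Dcaf4 whichever array was left out.

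**Figure D3:**
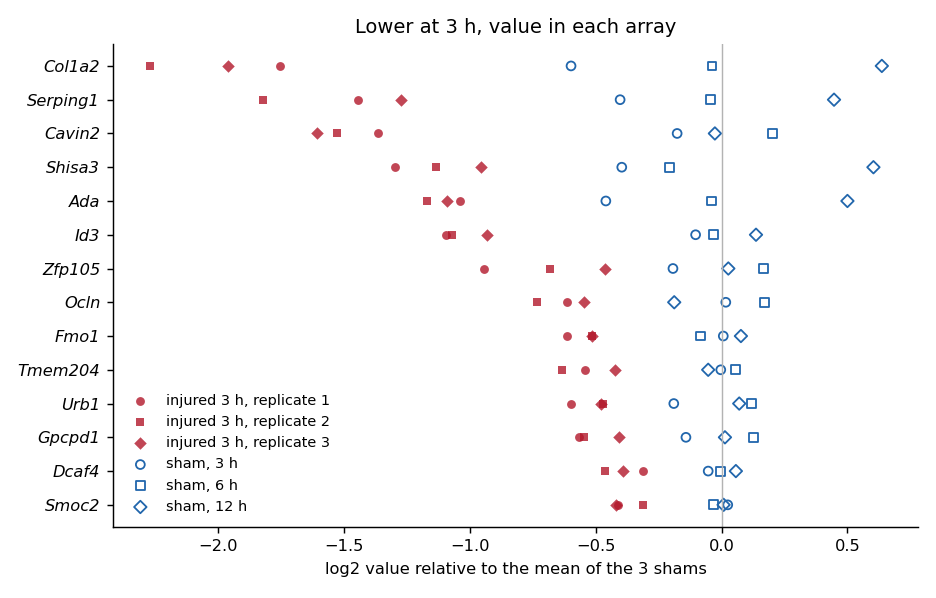
Log2 value of each array relative to the mean of the 3 shams (x axis) for the 14 called lower genes (y axis), with injured arrays as filled red symbols and shams as open blue ones. The filled symbols lie to the left of every open one, and the open circle of the 3 h sham is the leftmost open symbol in 10 of the 14 genes.

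Other pathways often followed after brain injury had no called gene at 3 h. Across the 42 lists, 24 held none. Only 0.584% of all genes were called, so 0 calls in a short list is near the share over all genes. An unadjusted p under 0.05 was reached by 9.55% of all genes. In the heat-shock list 0 of 14 were called by limma and 3 had an unadjusted p under 0.05, with Hspa1a, the inducible HSP70, at 1.11 ± 0.29 (adjusted p = 0.152) and Hspb1 at 1.20 ± 0.53 (adjusted p = 0.501). In the endoplasmic reticulum stress list 0 of 19 were called and 1 had an unadjusted p under 0.05: Ppp1r15a (GADD34), which restarts translation, at 1.11 ± 0.26 (adjusted p = 0.0994). Of 18 prostaglandin and leukotriene genes 0 were called and 4 had an unadjusted p under 0.05. There Ptgs2 (cyclooxygenase 2) read 1.13, 1.17 and 1.62 against -0.73, 0.21 and 0.51, with the 3 h sham the lowest, and Ptgds, a prostaglandin D synthase that the meninges also make, differed by -1.12 ± 0.26 (adjusted p = 0.0998). Of 17 JAK-STAT and SOCS genes 0 were called and 3 had an unadjusted p under 0.05, with Socs3 at 0.57 ± 0.20 (adjusted p = 0.337).

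Stress hormone, respiratory and neuronal genes had no called member either, which is again near the 0.584% of all genes called. The glucocorticoid-response list had 0 of 20 called by limma, 8 under an unadjusted p of 0.05 (3 higher and 5 lower, against 9.55% of all genes in either direction) and a median of -0.05 that took either sign under other settings, and its members ran from Sult1a1 at -1.72 ± 0.51 (adjusted p = 0.232) to Dusp1 at 1.14 ± 0.31. Oxidative phosphorylation genes had 0 of 18 called, 0 of 18 with an unadjusted p under 0.05, and a range from -0.15 to 0.05. The cell cycle list had 0 of 21 called and 1 under an unadjusted p of 0.05. Neuronal markers had 0 of 22 called, 3 under an unadjusted p of 0.05 and a median of -0.10, with the vesicular glutamate transporter Slc17a7 at -0.10 ± 0.08 and Camk2a at -0.18 ± 0.12. The centred values hold no expression level, so they cannot show whether cortical markers were detected. Bdnf, the neurotrophin that neuronal activity induces, differed by 0.12 ± 0.32 (adjusted p = 0.959), and Gfap, the filament of reactive astrocytes, by -0.40 ± 0.24 (adjusted p = 0.653). Gfap does not speak for its list. Of 19 reactive astrocyte markers 0 were called, and 6 had an unadjusted p under 0.05 (5 higher and 1 lower), against 9.55% of all genes. The median of that list was 0.03 and took either sign under other settings.

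**Figure D4:**
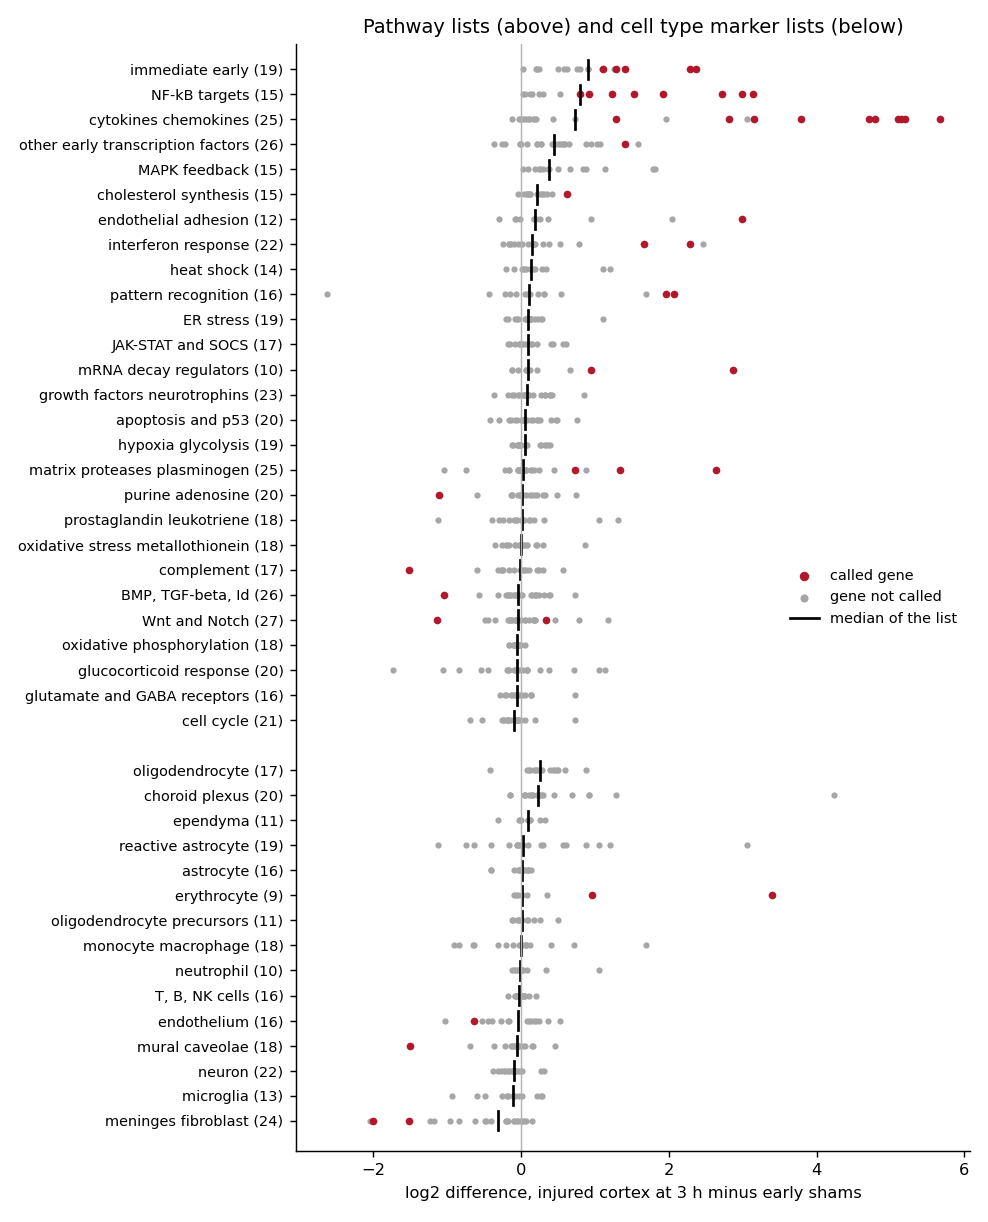
Log2 difference of each measured gene (x axis) by list (y axis, number of genes measured in brackets), pathway lists above and cell type marker lists below, with called genes in red, others in grey and the list median as a black bar. Medians fall from 0.91 for immediate early genes to -0.09 for cell cycle genes and, among markers, from 0.26 for oligodendrocytes to -0.30 for meninges and fibroblasts.

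Several of the largest differences did not pass. Cxcl10, an interferon-induced chemokine, just missed the threshold at 3.06 ± 0.64 (adjusted p = 0.052), with readings of 2.32, 3.45 and 3.42 against 0.32, -0.21 and -0.10. Ch25h, which makes 25-hydroxycholesterol, read 0.69, 2.46 and 3.49 against 0.19, 0.01 and -0.19, and Ccl7, a monocyte chemokine, 1.09, 2.22 and 2.58 against -0.05, 0.08 and -0.04. In both, injured replicate 1 was the lowest injured array, as it was for Ttr, Gbp2 and Sele. Fosb, an AP-1 subunit, read 2.55, 2.63 and 1.93 against 0.08, 0.29 and -0.36 and differed by 2.37 ± 0.59 (adjusted p = 0.126). Hmox1, haem oxygenase 1, read 0.08, 0.47 and 2.07 against 0.25, -0.21 and -0.04, high in injured replicate 3 alone. Among the 69 called higher genes the highest injured value was in replicate 1 for 20, in replicate 2 for 19 and in replicate 3 for 30.

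The 3 h arrays were then compared with injured cortex at later times, which shares the 3 h arrays with the comparison above. Against 6 h, 56 genes were higher (0.394%) and 113 lower (0.795%) at 3 h. Of the 83 genes, 64 were also called in the same direction when the 6 h injured arrays were set against the same early shams. Both comparisons use those 3 shams, so the overlap adds no separate support to the calls at 3 h. The share of all genes called at 6 h against the shams is not given here, so the overlap has no background to be judged by. Between 3 h and 6 h themselves, 11 of the 83 were called, 8 higher and 3 lower at 3 h. Outside the 3 lists the higher ones were Olr1 at 1.52 ± 0.21 (adjusted p = 0.00395), Uaca at 0.93 ± 0.14 (adjusted p = 0.00532), Dpyd at 0.66 ± 0.10 (adjusted p = 0.00532), Enpp6 at 0.60 ± 0.14 (adjusted p = 0.0495) and Nkd1 at 0.47 ± 0.07 (adjusted p = 0.00532). Against the same early shams the log2 differences of Olr1 at 3, 6, 12 and 48 h were 1.96, 0.44, 0.31 and 0.18, and those of Uaca were 0.80, -0.14, -0.05 and -0.11. The lower ones were Serping1 at -1.93 ± 0.28 (adjusted p = 0.00532), Zfp105 at -0.99 ± 0.14 (adjusted p = 0.00532) and Urb1 at -0.73 ± 0.10 (adjusted p = 0.00341). Serping1 went from -1.51 at 3 h to 0.42, 1.48 and 2.73 at 6, 12 and 48 h, below the shams first and above them later. Urb1 went from -0.52 to 0.21, 0.16 and -0.38 and Zfp105 from -0.70 to 0.29, -0.03 and -0.31, both below the shams again at 48 h. Of these 8 genes, Enpp6 lost its call against 6 h whichever of the 6 arrays was left out, and the other 7 kept theirs in each such fit. The total of 169 calls against 6 h was 42 without replicate 1 and 51 without replicate 2 of 3 h, and 87, 39 and 76 without replicates 1, 2 and 3 of 6 h.

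**Figure D5:**
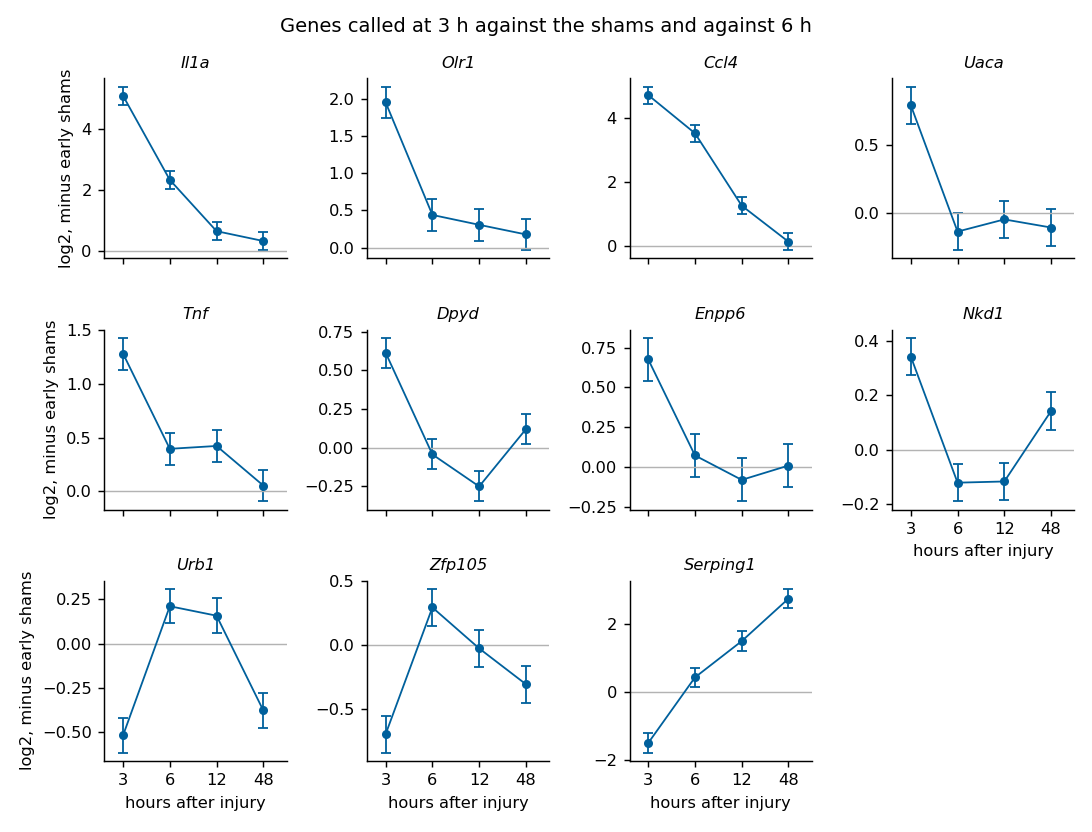
Log2 difference from the 3 early shams (y axis) by hours after injury (x axis, equally spaced and not to scale). The 11 genes called both against the shams and against 6 h are shown. Bars are ± limma's SE, with its spread estimated from all 16 arrays. The first 8 panels fall from 3 h to 6 h, with Il1a from 5.10 to 2.34, and the last 3 rise from below 0 over that step. Serping1 reaches 2.73 at 48 h, whereas Urb1 and Zfp105 are below 0 again there, at -0.38 and -0.31.

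Against 12 h, 457 genes were higher (3.21%) and 685 lower (4.82%) at 3 h, and against 48 h the counts were 370 higher (2.6%) and 863 lower (6.07%). The 1142 calls against 12 h fell to 372, 467 and 745 without replicates 1, 2 and 3 of 3 h and to 529 without replicate 2 of 12 h. The 1233 calls against 48 h numbered 740 and 615 without replicates 1 and 2 of 3 h, and 763, 547 and 1897 without replicates 1, 2 and 3 of 48 h. Depp1 was higher at 3 h than at 12 h by 3.01 ± 0.41 (adjusted p = 0.00103) and Plat by 1.08 ± 0.20 (adjusted p = 0.00643), and both calls held in each leave-one-out fit. Zfp36 differed between 3 h and 12 h by -0.01 ± 0.29 (adjusted p = 0.988) and between 3 h and 48 h by 1.79 ± 0.29 (adjusted p = 0.00232). Other genes of the wave were still above the early shams at 48 h. Gpr84 was 2.22 at 3 h and 1.93 at 48 h above the early shams, Irf8 1.66 and 2.04, and Plek 1.93 and 1.45. Their differences between 3 h and 48 h were 0.29 ± 0.27 (adjusted p = 0.583), -0.37 ± 0.27 (adjusted p = 0.441) and 0.48 ± 0.29 (adjusted p = 0.357), and a p that misses the threshold does not show equal levels. Id3 was lower at 3 h than at 48 h, with a difference of -1.91 ± 0.16 (adjusted p = 4.1e-05). The differences from the shams at all 4 times share the 3 early shams, and the 48 h sham was not used.

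The SD over genes of the 6 arrays was 0.201 to 0.238, and the most similar 2 arrays had a root mean square difference of 0.202. The 3′ minus 5′ differences of the control transcripts, on the centred log2 scale, were -0.15 to 0.15 for actin, -0.04 to 0.04 for GAPDH and -0.10 to 0.19 for hexokinase. In actin the groups overlapped, but hexokinase read 0.19, 0.03 and 0.08 in the injured arrays against -0.07, -0.05 and -0.10 in the shams, and GAPDH 0.00, -0.01 and 0.04 against -0.03, -0.03 and -0.04, so the injured arrays were all higher in both. The mean of 18 hybridization controls was 0.01, 0.20 and 0.22 in the injured arrays and -0.33, -0.11 and 0.09 in the shams, with injured array 1 among the shams. Their part in the gene differences was not tested. For 9692 of the 14217 genes 1 probe set stood for the gene. Of the 15 called genes with several, 3 had probe sets of opposite sign, and 2 of these belong to the 3 lists (Fos and Nfkbiz). Tested probe set by probe set, 74 genes were called, 69 of them among the 83. The other 5 were Nrarp (1.04), Spata13 (0.89), Cdh1 (-0.78), Bcl6b (0.75) and Arid5a (0.73).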

How the data were processed

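Affymetrix rat arrays were measured, 1 per sample. The deposited log2 values were made by the authors with RMA, per the submitters' processing notes, and are centred on each probe set's median over arrays. Their log base is not given in the sources used here and was taken as 2, so every fold change rests on it. Centring leaves no level, detection call or comparison between genes, and the 3 or 1 arrays per group and time limit the precision.

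Of 31099 probe sets, 57 controls were left out, 20826 carried 1 gene symbol, 436 several and 9780 none, per a platform annotation that can be old. Probe sets were averaged per symbol to 14217 genes. limma 3.58.1 in R 4.3.3 was fitted to all 16 arrays in 6 groups (10 residual degrees of freedom) with Benjamini-Hochberg adjustment at 0.05, and was tested on simulated data. The members, gene lists and naming rule were chosen with earlier results of these data known. Every called gene outside the 3 lists was named, with array values for the 24 largest increases, all decreases and some others, besides the 10 largest uncalled differences, a fixed panel and genes called against both the shams and 6 h. The other uncalled list members named were chosen after their values were seen. Promoters came from RefSeq (GRCr8). No pair of the 6 arrays was a duplicate. Same-numbered arrays had correlations of -0.118 to 0.257 in their deviations and were not paired.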

Additional observations from a re-analysis of the deposited data

Results flagged for a closer look

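Of 9780 probe sets to which the annotation gives no gene symbol, 7 passed limma's adjusted p of 0.05 over those probe sets, 6 higher and 1 lower at 3 h, although no comparison of named genes used them. They are given by their identifiers, and their genes were not named here. Probe set 1377092_at read 2.54, 3.33 and 3.45 in injured replicates 1, 2 and 3 and 0.31, -0.11 and -0.21 in the 3, 6 and 12 h shams, a difference of 3.11 ± 0.53 (SE, adjusted p = 0.0452). Probe set 1374429_at differed by 2.01 ± 0.29, 1385590_at by 1.92 ± 0.26 and 1376574_at by 1.74 ± 0.25, the last with injured values of 1.72, 1.76 and 1.73. The lower one, 1375638_at, read -1.37, -1.66 and -1.88 against -0.27, 0.19 and 0.09, a difference of -1.64 ± 0.19 (adjusted p = 0.00393). Probe sets 1377994_at and 1384892_at differed by 1.41 ± 0.22 and 1.19 ± 0.15. In all 7 the injured arrays, on which the calls were also made, lay on one side of the 3 shams.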

How the results depend on the processing

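No called gene changed direction under the settings that gave it 1 value, although single probe sets of Fos, Nfkbiz and Smoc2 had the opposite sign. The 83 genes at 3 h (69 higher, 14 lower) became 198 (134 and 64) with quantile normalization, 152 (117 and 35) with only the 2 groups in the model, 565 (328 and 237) with array weights, 49 (43 and 6) with a size of at least 1 required as well, and 13 (12 and 1) with the 3 h sham as the only control. The lower gene called with the 3 h sham alone was not among the 14. With all 4 shams the lower calls were 25. Leaving out 1 array gave 33 to 117 calls, 29 to 66 higher and 2 to 51 lower. Of the 83 genes, 81 were still called with quantile normalization, 81 with array medians set to 0, 74 with the most variable probe set per gene, 68 with only the 2 groups, 83 with array weights, 79 with robust eBayes, 65 with all 4 shams, 12 with the 3 h sham alone and 33 to 67 without 1 array. The smaller numbers without 1 array or with 1 sham come with fewer samples, and the cause of the other changes was not tested.

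Against 6 h, the 169 calls became 704 with quantile normalization, 551 with only the 2 groups and 39 to 157 without 1 array. Against 12 h, 1142 became 393 with only the 2 groups and 372 to 1405 without 1 array. Against 48 h, 1233 became 683 and 547 to 1897. With the replicate number as a block (replicate block), there were 79, 846 and 872 calls against 6, 12 and 48 h, and same-numbered arrays had correlations from -0.118 to 0.257, not over 0.1 in every pair. No paired analysis was possible for the sham comparison because every sham is numbered 1. Of 42 list medians, 28 kept their sign under the other scalings, the other probe set rule and each leave-one-out fit, and 14 did not. As alternatives chosen after seeing the data, 36 kept it with the 3 h sham alone and 38 with all 4 shams. Detection and signal over background are not in the centred values, so limits of low signal could not be set.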
